A study of Mus musculus with 18 samples.

Results

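The genes described here encode the proteasome: 48 mouse genes whose symbol begins with Psma, Psmb, Psmc, Psmd, Psme or Psmg followed by a number, out of 18193 genes that had a probe set named for them alone on the array. Of these, 46 encode subunits, assembly chaperones or activators of the complex. The other two matched by symbol only. Psmc3ip is a meiotic recombination protein, and Psme3ip1 is a nuclear protein that binds the activator Psme3. In all, 99 probe sets were named for a member and 26 members had more than 1 set, and a gene with several was read from the one that was brightest on average. Psma8, the testis form of an alpha subunit, and Psmb11, the thymus form of a beta subunit, lay within 1 log2 unit of the lowest value of the data set in all 18 arrays and were not tested in either organ. That left 46 of the 48 genes tested in each organ, of which 44 were proteasome genes. All 44 read above the array median in all 18 arrays, so none of them entered the tests only through the group in which it was high.

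The proteasome is the main protease of the cytosol and nucleus and degrades proteins tagged with ubiquitin. Its core particle is a barrel of alpha rings, which gate the entrance, and beta rings, which hold the catalytic sites. The regulatory particle that caps it has a base of ATPases, which unfold substrates, and a lid, which removes ubiquitin. Interferon-inducible beta subunits can replace the constitutive catalytic ones to form the immunoproteasome, and other caps, the activators, open the gate without ubiquitin. Dedicated chaperones build the rings. In mammals the transcription factor Nfe2l1 raises proteasome genes together when the protease is inhibited, and Nfe2l2 raises many of them in oxidative stress.

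The arrays came from male C57BL6 mice that received D-galactosamine (GalN) or saline into the peritoneum. GalN is an amino sugar that injures hepatocytes, and its dose was 4.5 g per kg. The liver groups were 48 h after GalN, 24 h after GalN, and sham, which was 24 h after saline, and the kidney groups were the same. Each of the 6 groups had 3 arrays, called A, B and C in the labels, and no sham group at 48 h was included. All mice had the same sex and strain, and whether arrays of the same letter in both organs came from 1 mouse is not stated in the sources used here. The organs were flushed with buffer in the animal, and RNA came from tissue homogenate, so fewer cells of a type and less RNA per cell cannot be told apart. The design text can also be read as pooling of the 3 mice of a condition, so the spread between arrays was taken as that between animals by assumption only.

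Values are log2 gcRMA values, 1 unit being a doubling, and a change is the difference of 2 group means on that scale with its standard error. A gene was called at a Benjamini-Hochberg adjusted p under 0.05 over all genes tested with limma. Arrays of 1 group correlated with each other at 0.983 to 0.998. Liver 48 h array C stood apart: the 3′ minus 5′ difference of the actin control sets, which rises as RNA degrades, was 2.56 there and 1.48 to 1.95 in the other livers, and results at 48 h in liver that turn on this array are given with and without it. The organ labels held: all 7 hepatocyte markers read higher in sham liver, and all 7 proximal tubule and all 5 distal nephron markers read higher in sham kidney. The summed linear level of 8 endothelial markers was 1213 to 1349 in 48 h livers and 1183 to 2771 in 24 h livers, against 780.2 to 856 in sham livers. The summed level of 11 macrophage markers was 18586 to 20034 in 48 h livers and 22997 to 25620 in 24 h livers, against 8073 to 12467 in sham livers. The 7 hepatocyte markers summed to 298391 to 331104 in 48 h livers and 323704 to 346403 in 24 h livers, against 356958 to 371199 in sham livers. The 9 lymphocyte markers summed to 179.3 to 317.2 in 48 h livers and 183.8 to 235.5 in 24 h livers, against 117.7 to 158.4 in sham livers. Of these, T cell markers Cd3e and Cd3g, B cell markers Cd79a and Ms4a1, and Nkg7 lay at the floor in every group. Limma called 0 of the 4 lymphocyte markers tested in liver against sham at either time.

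In the liver the proteasome genes were higher together at 48 h. Of 46 members tested, 22 rose against sham and 0 fell by limma, where 6.24% of all genes tested rose and 3.94% fell. At an unadjusted p under 0.05, 32 were higher and 0 lower, and the share of all genes at that threshold was not counted. The 22 were all proteasome genes, 50% of the 44 tested. The median change of the members was 0.67, beside 0.03 over all genes, and 43 of 46 changes were above 0. In each of the 22 genes called, all 48 h livers lay above all sham livers. This describes genes already called and is no support beyond the call. Members called at 24 h did not overlap sham either, and the share over all genes was not counted. At 24 h the genes had moved in both directions: 6 members rose and 5 fell, where 17.9% of all genes rose and 15.0% fell, and their median change was -0.04. Those shares are no larger than the background.

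By array, the median of the 44 proteasome genes relative to the sham mean was 0.78, 0.69 and 0.68 in 48 h livers A, B and C, and 42, 43 and 37 of the 44 genes lay above that mean. The corresponding medians were -0.04, -0.01 and -0.06 in 24 h livers and 0.04, 0.05 and -0.08 in sham livers. Without array C, 27 members rose against sham at 48 h. Over all genes, 1008 rose in that fit, against 753 with array C. The 8 gained were the ATPases Psmc1, Psmc2, Psmc4 and Psmc5 and the regulatory particle genes Psmd1, Psmd2, Psmd3 and Psmd11, and the 3 lost were Psmb6, Psmb10 and Psmd13. The count depended on the other arrays too: it was 11 without 48 h array A, 13 without sham A, 12 without sham B and 10 without sham C. Over all genes, 370, 458, 273 and 335 rose in those fits, in the same order. In each of those fits 43 to 45 of the 46 changes stayed above 0 and none was called lower. The rank product test named in the design text called 0 members in either direction at 48 h and 136 genes higher in all, and array weights in limma raised the count to 37.

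**Figure D1:**
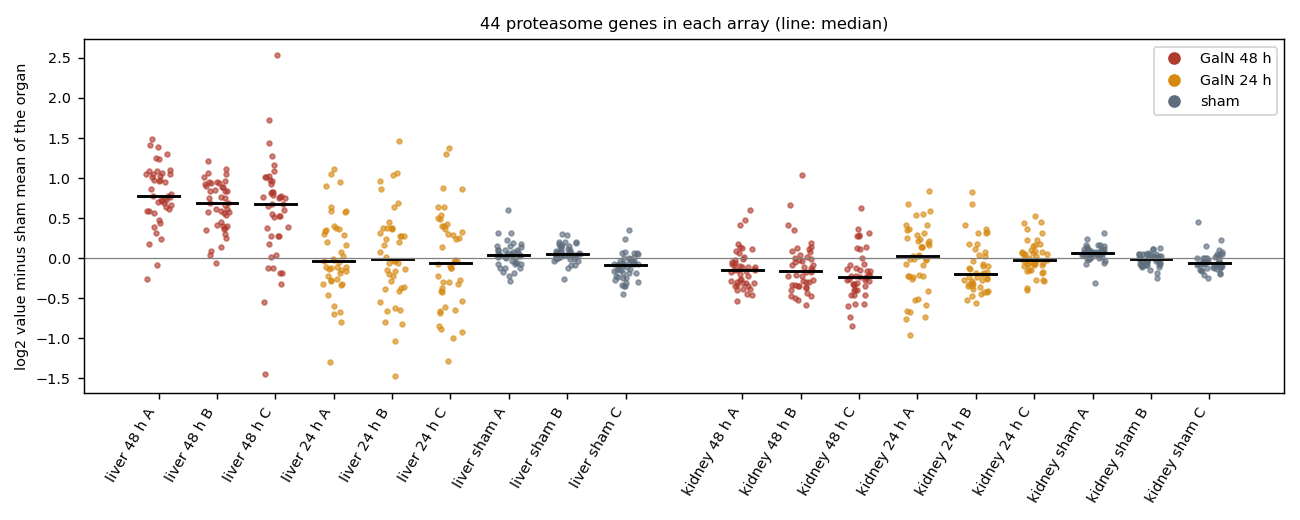
Log2 value of each of the 44 proteasome genes minus its mean in the sham arrays of the same organ (vertical axis, log2 units), for each of the 18 arrays (horizontal axis); points are genes and black lines are medians. The medians of the 48 h livers lie at 0.68 to 0.78, while those of the other livers and of the kidneys lie between -0.24 and 0.07.

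In the alpha ring, 6 of 7 tested genes rose against sham in liver at 48 h (Psma1, Psma2, Psma3, Psma5, Psma6 and Psma7), with a median change of 0.84, and Psma4 had a change of 0.51 ± 0.17 (SE, adjusted p = 0.106). Psma7 had the largest change of the ring, with values of 12.73, 12.32 and 12.86 in 48 h livers, 11.39, 11.04 and 10.82 in 24 h livers and 11.47, 11.64 and 11.19 in sham livers. All 48 h values lay above all the others, while the 24 h and sham values overlapped. Its change against sham was 1.21 ± 0.21 (SE, adjusted p = 0.0154) at 48 h and -0.35 ± 0.21 (SE, adjusted p = 0.248) at 24 h. Psma5 was called at both times. It read 13.71, 13.32 and 13.53 in 48 h livers and 13.12, 13.43 and 13.27 in 24 h livers, against 12.69, 12.84 and 12.68 in sham livers, and neither GalN group overlapped sham. Its rise was 0.78 ± 0.12 (SE, adjusted p = 0.0131) at 48 h and 0.54 ± 0.12 (SE, adjusted p = 0.0153) at 24 h. Psma3 fell by 0.37 at 24 h (adjusted p = 0.0376) and was 0.59 ± 0.11 (SE, adjusted p = 0.019) above sham at 48 h.

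Among the constitutive beta genes, Psmb2, Psmb3, Psmb4 and Psmb6 rose against sham at 48 h, 4 of 7. At 24 h, all 7 changes were below 0, with a median of -0.35, and Psmb1 and Psmb7 fell. Against the 24 h livers, all 7 were higher at 48 h, with a median of 1.17. Of the 3 catalytic genes, Psmb6, which carries the caspase-like site, read 12.96, 12.86 and 13.40 in 48 h livers, 12.18, 11.70 and 11.78 in 24 h livers and 12.38, 12.39 and 12.18 in sham livers. The 48 h livers lay above the sham livers and the 24 h livers below them, the nearest 24 h and sham arrays being equal to 2 decimals. Its change was 0.76 ± 0.18 (SE, adjusted p = 0.0435) at 48 h and -0.43 ± 0.18 (SE, adjusted p = 0.112) at 24 h, and the 48 h call held in only 1 of 9 fits that each left out 1 array. Without 48 h array C the 48 h change was 0.59 (adjusted p = 0.0587).

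Psmb7, the trypsin-like subunit, read 13.11, 12.95 and 13.29 in 48 h livers, 12.33, 11.90 and 11.63 in 24 h livers and 12.58, 12.60 and 12.46 in sham livers, in 3 groups that did not overlap. It fell by 0.60 at 24 h against sham (adjusted p = 0.0399, held in 3 of 9 such fits), its change against sham at 48 h was 0.57 ± 0.18 (SE, adjusted p = 0.0962), and it was 1.17 ± 0.18 (SE, adjusted p = 0.00358) higher at 48 h than at 24 h. Psmb5, the chymotrypsin-like subunit and main target of proteasome inhibitors, had 12.89, 12.77 and 13.04 in 48 h livers, 12.48, 12.14 and 12.21 in 24 h livers and 12.54, 12.66 and 12.33 in sham livers, where sham and 24 h overlapped. Its change against sham at 48 h was 0.39 ± 0.13 (SE, adjusted p = 0.116), and that against 24 h was 0.62 ± 0.13 (SE, adjusted p = 0.0126). Of the non-catalytic genes, Psmb2 had 10.52, 10.42 and 10.21 in 48 h livers, 9.45, 8.80 and 9.09 in 24 h livers and 9.54, 9.54 and 9.30 in sham livers, with a rise of 0.92 ± 0.18 (SE, adjusted p = 0.0228) at 48 h, which held in 4 of 9 fits without 1 array. The 48 h livers lay above both other groups. Psmb4 had the smallest standard error, with a rise of 0.89 ± 0.07 (SE, adjusted p = 0.00299).

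Of the 3 immunoproteasome genes in liver, 1 rose against sham at 48 h, where all 3 changes were above 0. At 24 h limma called 0 and all 3 changes were below 0, at -0.43 to -0.57. Differences among the 3 genes were not tested. Psmb10, which replaces Psmb7, read 9.43, 9.94 and 10.01 in 48 h livers, 8.67, 8.44 and 8.15 in 24 h livers and 9.01, 8.91 and 9.05 in sham livers. These 3 groups did not overlap, and its rise at 48 h was 0.80 ± 0.19 (SE, adjusted p = 0.0437), a call that held in 3 of 9 fits without 1 array. Without 48 h array C its change was 0.69 (adjusted p = 0.0812). Psmb8, which replaces Psmb5, had 9.0, 9.02 and 9.36 in 48 h livers, 8.28, 8.93 and 8.76 in 24 h livers and 9.12, 9.05 and 9.08 in sham livers, with a change of 0.05 ± 0.18 (SE, adjusted p = 0.938) at 48 h. The 48 h and sham livers overlapped and the 24 h livers lay below both. Psmb9, which replaces Psmb6, had 8.76, 8.67 and 9.25 in 48 h livers, 7.88, 8.38 and 7.93 in 24 h livers and 9.18, 8.32 and 8.23 in sham livers. Sham array A was the second highest of the 9, the groups overlapped, and the change at 48 h was 0.32 ± 0.30 (SE, adjusted p = 0.563).

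**Figure D2:**
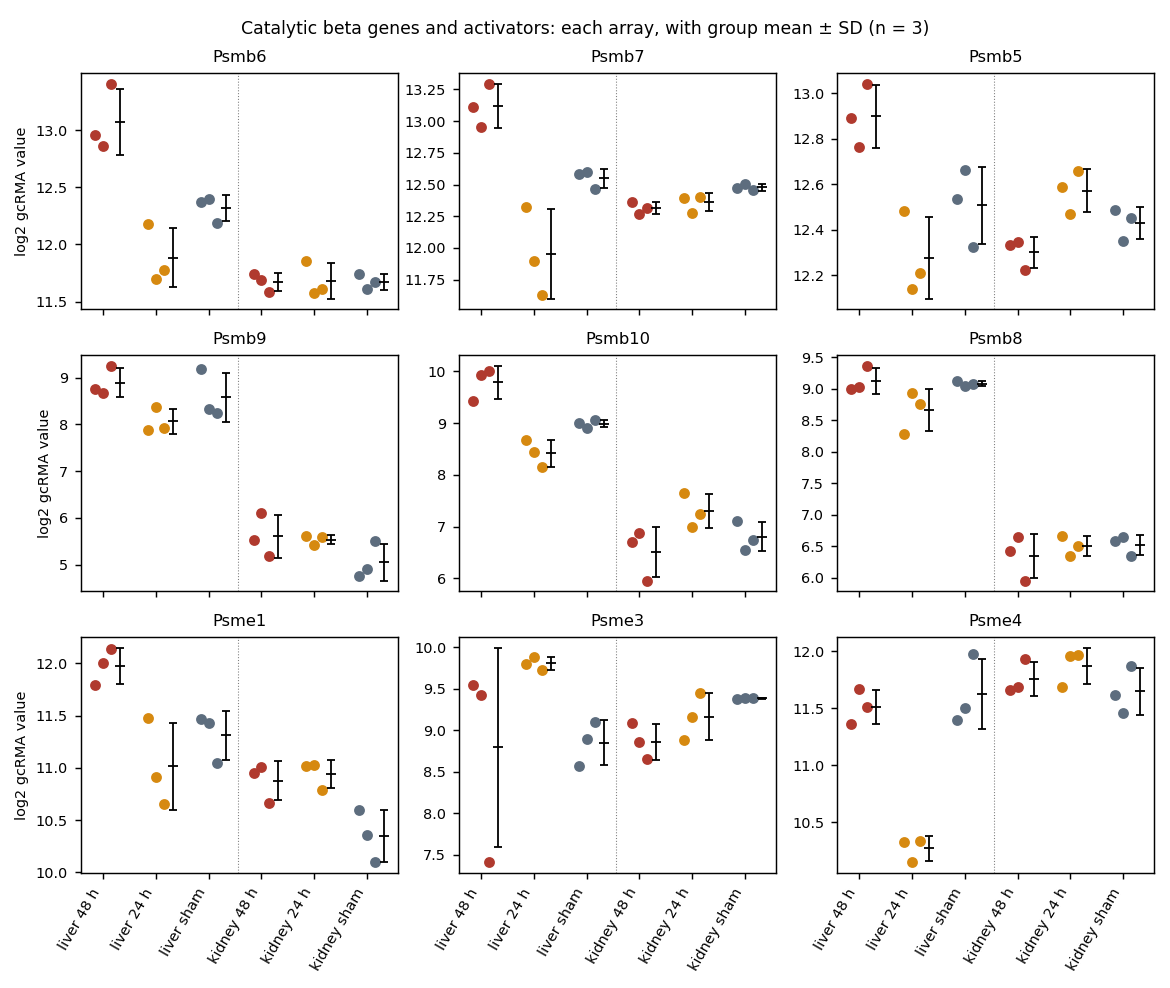
Log2 gcRMA values (vertical axes) of the constitutive catalytic genes Psmb6, Psmb7 and Psmb5, the inducible genes that replace them in the same column, and the activators, in 48 h, 24 h and sham arrays of liver and kidney; points are arrays and black marks are group means ± SD (n = 3). Psmb6, Psmb7 and Psmb10 are highest in the 48 h livers, Psme4 is lowest in the 24 h livers at 10.15 to 10.34, and 1 of the 48 h livers has a Psme3 value of 7.41.

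In the regulatory particle, 8 of 17 base and lid genes rose at 48 h against sham and the median change was 0.73. Of the 6 ATPases, Psmc3 and Psmc6 rose, all 6 changes were between 0.56 and 1.08, and all 6 rose without array C. Psmc6 had 12.68, 12.12 and 12.31 in 48 h livers, 11.59, 11.66 and 11.77 in 24 h livers and 11.30, 11.39 and 11.17 in sham livers, in 3 groups without overlap. It rose by 1.08 ± 0.15 (SE, adjusted p = 0.00817) at 48 h, and its change at 24 h was 0.39 ± 0.15 (SE, adjusted p = 0.0828). Both values depended on the probe set. The other two sets for Psmc6 fell by 1.13 and 0.87 at 24 h and were called when every set was tested on its own. At 48 h their changes were 0.77 and 0.41 and were not called (adjusted p = 0.188 and 0.359), and the mean of the sets was not called either. Psmc2 rose at 24 h, by 0.81 ± 0.22 (SE, adjusted p = 0.0279), and had a change of 0.56 ± 0.22 (SE, adjusted p = 0.167) at 48 h, or 0.81 without array C (adjusted p = 0.0124). A second set for Psmc2 had a change of 0.58 at 24 h and was not called (adjusted p = 0.105). Of the other 3 base genes, Psmd4, a ubiquitin receptor, rose: it had 12.52, 12.34 and 11.94 in 48 h livers, 11.78, 11.80 and 12.07 in 24 h livers and 11.30, 11.62 and 11.35 in sham livers, a change of 0.84 ± 0.17 (SE, adjusted p = 0.0258) at 48 h. The 48 h livers lay above sham, and their lowest, array C, was within the 24 h range. The call held in 4 of 9 fits without 1 array and was lost with the mean of probe sets and with a replicate block. A second set for Psmd4 had a change of 0.75 and was not called (adjusted p = 0.0897).

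In the lid, 5 of 8 genes rose at 48 h against sham: Psmd6, Psmd8, Psmd12, Psmd13 and Psmd14. Psmd14, the subunit that cuts the ubiquitin chain off the substrate, had the largest change. It read 11.97, 11.39 and 11.84 in 48 h livers, 10.27, 10.84 and 10.53 in 24 h livers and 10.88, 10.58 and 10.22 in sham livers. The 48 h livers lay above both other groups, which overlapped each other, and the rise was 1.18 ± 0.24 (SE, adjusted p = 0.0252). It held in 6 of 9 fits without 1 array and was lost with a replicate block. Psmd13, a structural lid subunit, fell by 0.68 at 24 h (adjusted p = 0.0307) and was 0.80 ± 0.19 (SE, adjusted p = 0.0414) above sham at 48 h, or 0.69 without array C (adjusted p = 0.0781). A second set for Psmd13, tested on its own, had changes of -0.30 at 24 h and 0.84 at 48 h. Neither was called (adjusted p = 0.42 and 0.0975). Psmd8 rose at both times, by 0.59 ± 0.09 (SE, adjusted p = 0.0128) at 48 h and 0.39 ± 0.09 (SE, adjusted p = 0.0178) at 24 h.

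Of the assembly chaperones, Psmg4 and Psmg1, of the chaperone pairs that build the alpha ring, and Psmd10, a chaperone of the base also known as gankyrin, rose at 48 h, 3 of 7, and all 7 changes were above 0. Psmg4 had 8.26, 7.99 and 9.31 in 48 h livers, 7.18, 6.74 and 7.28 in 24 h livers and 6.84, 6.74 and 6.74 in sham livers. All 48 h values were above all the others, array C most. The change at 48 h was 1.74 ± 0.33 (SE, adjusted p = 0.0221), the largest among the members, and was 1.35 without array C (adjusted p = 0.00989). The call held in 5 of 9 fits without 1 array. The same reading of 6.745 recurred in 6 of the 18 arrays for this set, 2 of them sham livers, 1 a 24 h liver and 3 GalN kidneys. Psmd10 rose by 1.22 ± 0.25 (SE, adjusted p = 0.0272) at 48 h, or 0.97 without array C (adjusted p = 0.0276). That call held in 5 of 9 fits without 1 array and was lost with no filter, median centring or a replicate block. The 24 h change of Psmd10 was 0.65 ± 0.25 (SE, adjusted p = 0.0896). Those that rose at 24 h were Psmd5, another base chaperone, and Psmg3, the partner of Psmg4. Psmd5 read 10.34, 10.08 and 9.90 in 48 h livers, 10.74, 11.08 and 11.00 in 24 h livers and 9.50, 9.83 and 9.55 in sham livers. It was above sham at 24 h by 1.31 ± 0.16 (SE, adjusted p = 0.00111), the largest rise of any member at that time, and lower at 48 h than at 24 h by 0.83 (adjusted p = 0.00785). Psmg3 rose by 1.14 ± 0.24 (SE, adjusted p = 0.0099) at 24 h. The difference between 48 h and 24 h was not called for Psmg3, at -0.69 ± 0.24 (SE, adjusted p = 0.0698), or for Psmd10, at 0.57 ± 0.25 (SE, adjusted p = 0.137). Without array C it was -0.87 for Psmg3 (adjusted p = 0.0343), which was called, and 0.32 for Psmd10 (adjusted p = 0.279).

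None of the 3 activators was called against sham at 48 h by limma, and their difference from the other members was not tested. Psme4, a large single-chain cap, fell at 24 h more than any other member. It read 11.36, 11.66 and 11.51 in 48 h livers, 10.33, 10.15 and 10.34 in 24 h livers and 11.40, 11.50 and 11.97 in sham livers. The 24 h livers lay below all the others, and sham and 48 h overlapped. It fell by 1.35 at 24 h (adjusted p = 0.00115), and the difference between 48 h and sham was -0.11 ± 0.16 (SE, adjusted p = 0.733). Both further measurable sets for Psme4 fell at 24 h as well, by 1.49 and 1.53. Psme1, a subunit of the interferon-inducible cap, had 11.79, 12.00 and 12.14 in 48 h livers, 11.47, 10.91 and 10.66 in 24 h livers and 11.47, 11.43 and 11.04 in sham livers. The 48 h livers were above sham without overlap, with a change of 0.66 ± 0.23 (SE, adjusted p = 0.119). Psme3, the nuclear cap, had 9.55, 9.42 and 7.41 in 48 h livers, 9.80, 9.88 and 9.73 in 24 h livers and 8.56, 8.89 and 9.10 in sham livers. Array C of the 48 h group was the lowest of all and set the spread of this gene. Its change at 48 h was -0.06 ± 0.54 (SE, adjusted p = 0.995) with that array and 0.63 without it (adjusted p = 0.0538). At 24 h it was 0.95 ± 0.54 (SE, adjusted p = 0.223). A second set for Psme3, tested on its own, rose by 0.78 at 24 h (adjusted p = 0.048). Its change at 48 h was 0.79 and was not called (adjusted p = 0.0989).

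**Figure D3:**
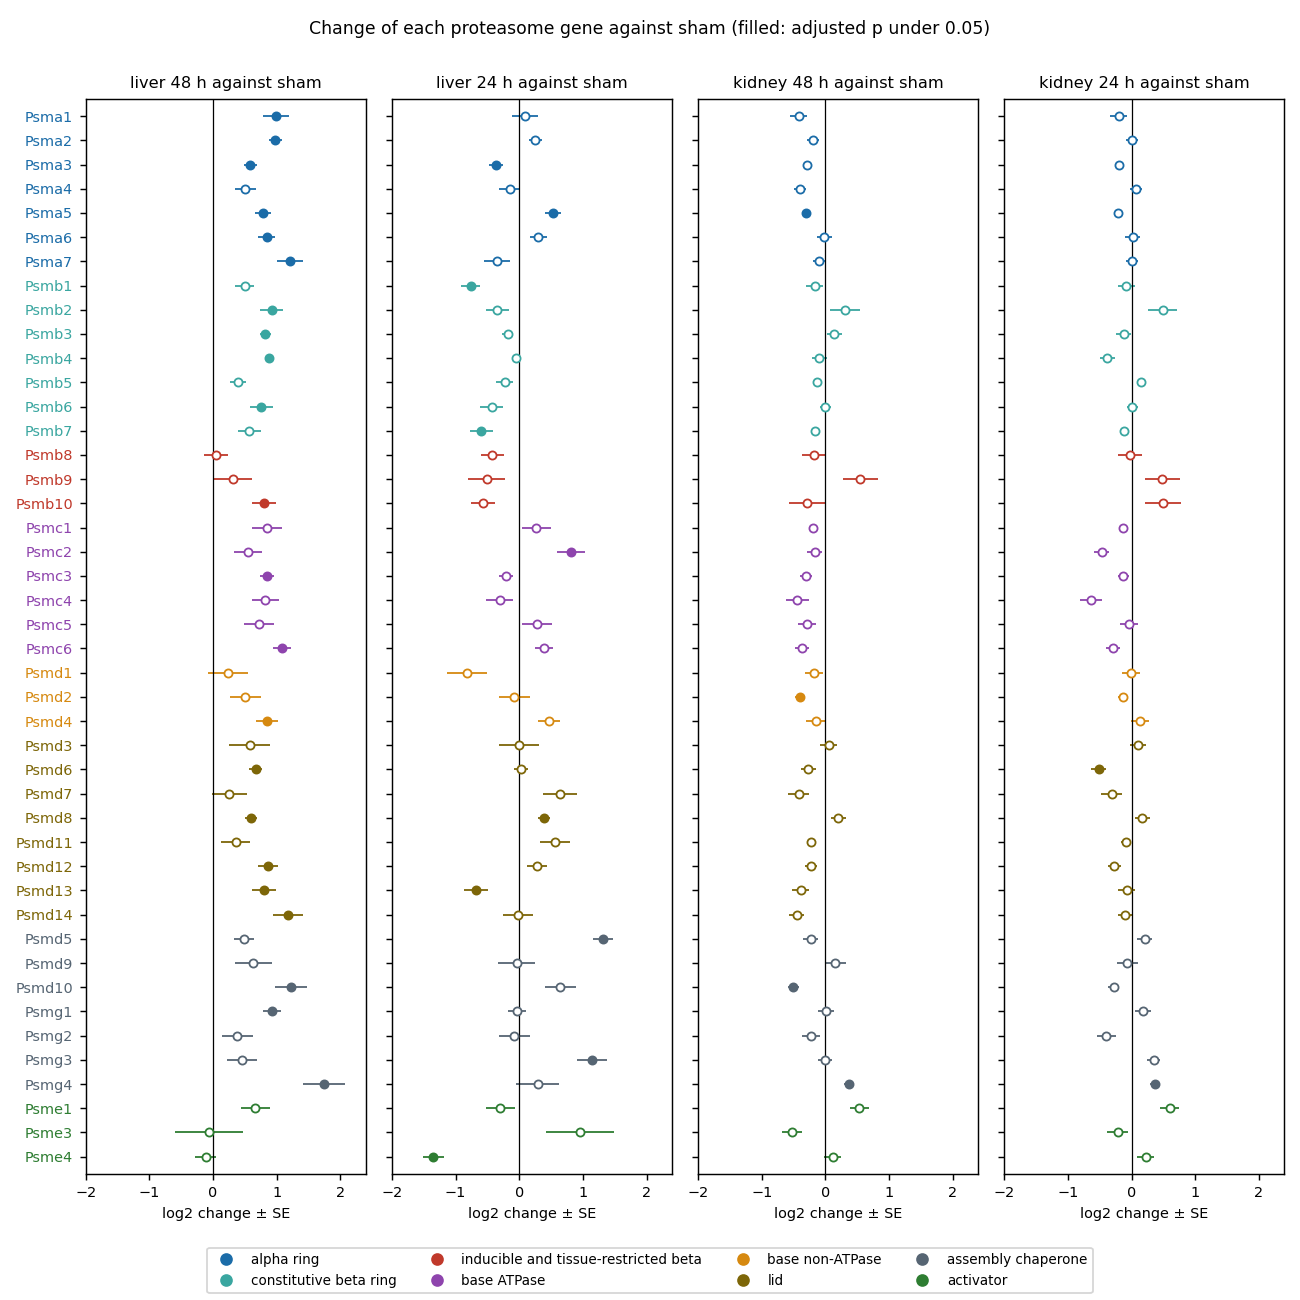
Log2 change against sham ± SE (horizontal axes) of the 44 proteasome genes (rows, coloured by role) in liver at 48 h, liver at 24 h, kidney at 48 h and kidney at 24 h; filled points have an adjusted p under 0.05. In liver, 22 points are filled at 48 h, all above 0, and 10 at 24 h, 5 on each side of 0, against 4 and 2 in kidney.

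The 48 h livers were also set directly against the 24 h livers. Of 46 members, 26 were higher at 48 h than at 24 h and 2 lower, where 14.6% of all genes were higher and 13.1% lower. The 2 lower were Psmd5 and Psme3ip1. Without array C, 31 were higher and 3 lower, with Psmg3 added to the lower ones. In the core, 13 of the 14 tested alpha and constitutive beta genes were higher. The same 48 h arrays stand in this comparison and in that with sham, and the same 24 h arrays in this one and the comparison of 24 h with sham, so they are not independent. The 5 members that fell at 24 h were Psma3, Psmb1, Psmb7, Psmd13 and Psme4, and all 5 were called higher at 48 h than at 24 h. Of the 22 genes above sham at 48 h, 18 were also above the 24 h livers.

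At 24 h in liver the counts were small and rested on single arrays. The 5 falls became 2 without 24 h array B, 2 without 24 h array C, 3 without 48 h array A, 2 without sham A, 2 without sham B and 3 without sham C. The 6 rises became 13 without 48 h array C and lay between 4 and 7 in the other fits without 1 array. Setting each array to a common median shifted every gene by -0.17 at 24 h and -0.14 at 48 h relative to sham, after which 8 members fell at 24 h and the median of the members at 48 h was 0.53.

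Of 14 regulators and helpers tested in liver, 4 rose and 3 fell at 24 h, and at 48 h 1 rose and 0 fell. The 24 h shares were 28.6% and 21.4%, where 17.9% of all genes rose and 15.0% fell. At 48 h, 6.24% of all genes rose and 3.94% fell. Nfe2l2, the oxidative stress factor, averaged 10.66 in 48 h livers, 12.29 in 24 h livers and 10.49 in sham livers, a rise at 24 h of 1.80 ± 0.30 (SE, adjusted p = 0.00408) and a change of 0.17 ± 0.30 (SE, adjusted p = 0.788) at 48 h. Zfand2a, a stress-induced protein that binds the proteasome, averaged 8.60 in 48 h livers, 9.98 in 24 h livers and 7.72 in sham livers and rose by 2.26 ± 0.32 (SE, adjusted p = 0.00222) at 24 h. Akirin2, needed for import of proteasomes into the nucleus, rose by 0.81 ± 0.12 (SE, adjusted p = 0.00288) at 24 h. Txnl1, a thioredoxin-like protein bound to the regulatory particle, rose by 0.31 at 24 h and by 0.41 at 48 h (adjusted p = 0.046 and 0.04). The 3 that fell at 24 h were Ecpas, a proteasome adaptor, Ube3c, a ubiquitin ligase that works at the proteasome, and Ngly1, the enzyme that removes sugars from Nfe2l1. Nfe2l1 itself was not called, with a change of 0.02 ± 0.34 (SE, adjusted p = 1) at 48 h and -0.74 ± 0.34 (SE, adjusted p = 0.143) at 24 h. Pomp, the maturation factor of the core, was not called either, with 0.45 ± 0.16 (SE, adjusted p = 0.133) at 48 h.

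Of 9 ubiquitin and shuttling genes, 1 rose at 48 h, Ufd1, a cofactor of the unfoldase Vcp, by 0.70 ± 0.11 (SE, adjusted p = 0.0129). At 24 h the shuttle genes Ubqln2 and Ubqln4 rose, by 1.13 and 1.14, and the shuttle gene Rad23b fell by 0.85, with adjusted p of 0.00361, 0.0257 and 0.0475. Of 13 interferon and antigen presentation genes, 0 rose and 1 fell at 48 h. That one was B2m, the light chain of class I molecules, which fell by 0.41 (adjusted p = 0.0182). At 24 h Tap1, a subunit of the peptide transporter, and Gbp2, an interferon-induced GTPase, rose, by 1.72 and 1.33, and Erap1, the peptide trimming enzyme, fell by 1.17. These 24 h shares, 15.4% higher and 7.69% lower, are no larger than those of all genes, 17.9% and 15.0%. Those of the ubiquitin list at 24 h were 22.2% and 11.1%. At 48 h, 6.24% of all genes rose and 3.94% fell. Beside these changes, 6 of 11 macrophage markers rose at 24 h in liver and 3 at 48 h, namely C1qb, Cd5l and Cd68. Of 8 endothelial markers, 6 rose at 24 h, with a median change of 1.18, and 2 at 48 h, Lyve1 and Stab1. The part of macrophages and endothelial cells in the changes of the proteasome genes was not tested.

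In kidney few members were called. At 48 h, 1 of 46 members rose and 3 fell, where 1.29% of all genes rose and 1.40% fell, the median change was -0.18 and 11 of 46 changes were above 0. At an unadjusted p under 0.05, 2 were higher and 17 lower. For this and the other unadjusted counts in kidney, the share of all genes was not counted. At 24 h, 1 rose and 1 fell, where 2.21% rose and 3.10% fell, the median was -0.08 and 19 of 46 were above 0, with 3 higher and 11 lower at an unadjusted p under 0.05. Between 48 h and 24 h, limma called 0 in either direction, where 0.958% of all genes were higher and 0.650% lower. At an unadjusted p under 0.05, 2 were higher and 8 lower between those times, and rank product called 0 of either. Psmg4 was the 1 that rose at each time. It read 6.74, 6.74 and 6.60 in 48 h kidneys, 6.74, 6.64 and 6.68 in 24 h kidneys and 6.38, 6.25 and 6.35 in sham kidneys. Both GalN groups lay above sham, by 0.37 ± 0.07 (SE, adjusted p = 0.0496) at 48 h and 0.36 ± 0.07 (SE, adjusted p = 0.0389) at 24 h, and 3 of these readings are the recurrent 6.745. Each call held in only 1 of 9 fits without 1 array.

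The falls in kidney were of 0.31 to 0.52. Psma5 had 11.81, 11.83 and 11.79 in 48 h kidneys, 11.90, 11.85 and 11.95 in 24 h kidneys and 12.23, 12.08 and 12.06 in sham kidneys. Both GalN groups lay below all sham kidneys, and the fall at 48 h was called (adjusted p = 0.0362). A second set for Psma5, tested on its own, had a change of -0.28 at 48 h and was not called (adjusted p = 0.425). Psmd10 had 9.47, 9.42 and 9.35 in 48 h kidneys, 9.70, 9.47 and 9.73 in 24 h kidneys and 10.01, 9.91 and 9.84 in sham kidneys, and fell by 0.50 at 48 h (adjusted p = 0.033). Psmd2, the base subunit that docks shuttle proteins, had 10.08, 10.10 and 10.02 in 48 h kidneys, 10.46, 10.20 and 10.33 in 24 h kidneys and 10.46, 10.42 and 10.52 in sham kidneys, and fell by 0.40 at 48 h (adjusted p = 0.0379). For both genes the 48 h kidneys lay below all sham kidneys. Psmd6, a lid subunit, read 13.21, 13.06 and 13.01 in 48 h kidneys, 12.61, 12.84 and 13.08 in 24 h kidneys and 13.37, 13.35 and 13.36 in sham kidneys. It fell by 0.52 at 24 h (adjusted p = 0.0498). A second set for Psmd6, tested on its own, had a change of -0.19 at 24 h and was not called (adjusted p = 0.308).

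These 4 falls held in few of the 9 fits that each left out 1 array: 3 for Psma5, 3 for Psmd10, 2 for Psmd2 and 1 for Psmd6. Those of Psma5, Psmd2 and Psmd6 were also lost with the mean of probe sets. The 3 falls at 48 h became 0 in each fit without 1 of the 48 h or sham kidneys, 5 without 24 h array A or B, and 4 without 24 h array C. The fall at 24 h became 4 without 24 h array C and 0 in the other fits. By the sets used, none of the 6 ATPase genes was called in kidney, and all 6 changes were below 0 at both times. When every set was tested on its own, both other sets for Psmc6 fell at 24 h, by 1.15 (adjusted p = 0.0486) and 0.79 (adjusted p = 0.018), and the second also at 48 h, by 0.53 (adjusted p = 0.035). Psmc4, the ATPase with the largest change among the sets used, had 12.97, 12.54 and 12.53 in 48 h kidneys, 12.16, 12.56 and 12.73 in 24 h kidneys and 13.21, 13.18 and 12.98 in sham kidneys, and its change was -0.44 ± 0.18 (SE, adjusted p = 0.237) at 48 h and -0.64 ± 0.18 (SE, adjusted p = 0.0883) at 24 h.

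The inducible genes of kidney were not called at either time. Psmb9 had 5.53, 6.10 and 5.18 in 48 h kidneys, 5.60, 5.42 and 5.58 in 24 h kidneys and 4.75, 4.91 and 5.50 in sham kidneys, and the groups overlapped. Psmb8 had 6.43, 6.64 and 5.95 in 48 h kidneys, 6.65, 6.34 and 6.50 in 24 h kidneys and 6.58, 6.64 and 6.34 in sham kidneys. Psmb10 had 6.70, 6.88 and 5.96 in 48 h kidneys, 7.65, 6.99 and 7.25 in 24 h kidneys and 7.11, 6.55 and 6.75 in sham kidneys, again with overlap for both. For Psme1, all 6 GalN kidneys lay above all sham kidneys. It read 10.95, 11.01 and 10.67 in 48 h kidneys, 11.02, 11.02 and 10.79 in 24 h kidneys and 10.59, 10.35 and 10.10 in sham kidneys, and its change was 0.53 ± 0.15 (SE, adjusted p = 0.111) at 48 h and 0.60 ± 0.15 (SE, adjusted p = 0.0687) at 24 h, neither of which passed the threshold. At 24 h it was called with quantile normalization, median centring or a replicate block. Of the 13 interferon and antigen presentation genes, 1 rose in kidney at 48 h, Tapbp, a helper of class I loading, by 0.45, and 2 at 24 h, Tapbp and Ifit1, an interferon-induced RNA-binding protein. Over all genes tested in kidney, 1.29% rose at 48 h and 2.21% at 24 h. None of the regulators or of the ubiquitin genes was called in kidney.

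The constitutive catalytic genes were not called in kidney. Psmb6 had 11.74, 11.69 and 11.58 in 48 h kidneys, 11.86, 11.57 and 11.61 in 24 h kidneys and 11.75, 11.61 and 11.67 in sham kidneys, with overlap of all 3 groups. Psmb5 had 12.33, 12.35 and 12.22 in 48 h kidneys, 12.59, 12.47 and 12.66 in 24 h kidneys and 12.49, 12.35 and 12.45 in sham kidneys. Psmb7 had 12.36, 12.27 and 12.32 in 48 h kidneys, 12.40, 12.28 and 12.40 in 24 h kidneys and 12.47, 12.51 and 12.45 in sham kidneys, where the GalN groups lay below sham by at most 0.16. Psmb2 had the largest change of the constitutive beta genes there. It read 8.69, 9.10 and 9.37 in 48 h kidneys, 9.33, 9.57 and 8.79 in 24 h kidneys and 8.78, 8.74 and 8.71 in sham kidneys, with a change of 0.31 ± 0.23 (SE, adjusted p = 0.535) at 48 h and 0.49 ± 0.23 (SE, adjusted p = 0.257) at 24 h. Psme3 had 9.08, 8.86 and 8.65 in 48 h kidneys, 8.88, 9.16 and 9.45 in 24 h kidneys and 9.38, 9.38 and 9.39 in sham kidneys. Psme4 had 11.66, 11.69 and 11.93 in 48 h kidneys, 11.69, 11.96 and 11.97 in 24 h kidneys and 11.61, 11.46 and 11.87 in sham kidneys. For Psme3 all 48 h kidneys lay below all sham kidneys, and for Psme4 the groups overlapped. By the sets used, these caps were not called, with changes of -0.52 and 0.11 at 48 h and -0.22 and 0.22 at 24 h. When every set was tested on its own, a second set for Psme3 fell in kidney at 48 h, by 0.72 (adjusted p = 0.038). Its change at 24 h was -0.29 (adjusted p = 0.218).

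**Figure D4:**
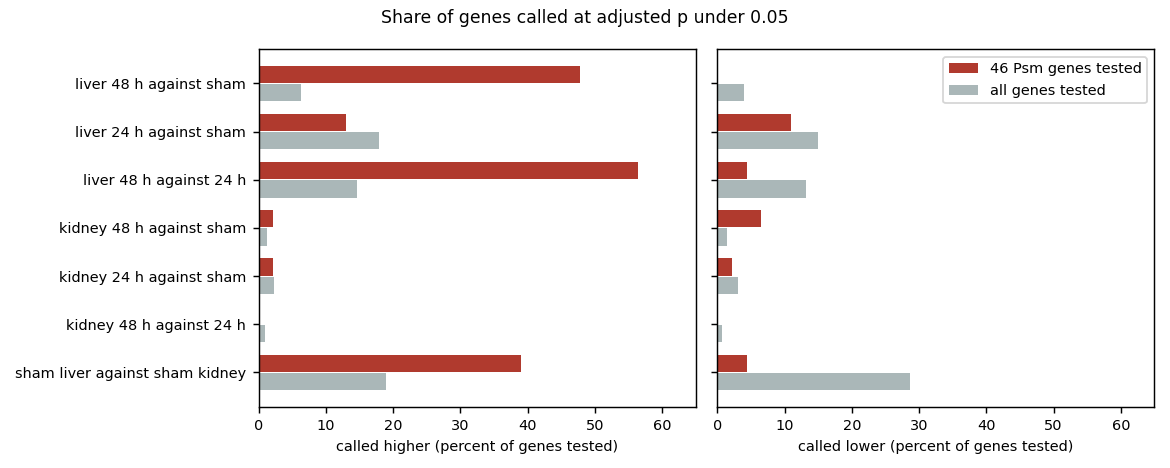
Percent of the 46 members tested and of all genes tested (horizontal axes) called higher (left) and lower (right) in each comparison (rows). In liver at 48 h against sham, 47.8% of members were called higher, against 6.24% of all genes, while 0 to 3 of the 46 members were called in each kidney comparison and direction.

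Whether the organs differed in their response was tested directly, as the change in liver minus the change in kidney in 1 fit of all 18 arrays. The fit took all arrays as independent, although organs of the same mouse may be among them. At 48 h the response was larger in liver for 28 of 46 members and smaller for 0 by limma, where 8.41% of all genes had a larger and 4.68% a smaller one. At an unadjusted p under 0.05 these were 32 and 0, again without a count over all genes. The median difference was 0.81. All 7 tested alpha genes and 6 of 7 constitutive beta genes were among the 28, as were 5 of 6 ATPases, and 0 of 3 activators and 0 of 3 inducible beta genes. The differences of the 3 inducible genes ran from -0.23 to 1.09, and those of the constitutive beta genes from 0.52 to 0.98. The lack of a call is thus not the lack of a difference. At 24 h the response was larger in liver for 10 members and smaller for 5, where 16.5% of all genes were larger and 13.8% smaller. The largest difference at 24 h was that of Psme4, -1.57 ± 0.22 (SE, adjusted p = 0.000119). Without array C of the 48 h livers, the 48 h count was 32. The 5 at 24 h became 9 without liver 24 h array A, 2 without liver 24 h B, 1 without liver 24 h C, 1 without kidney 24 h A, 2 without liver sham A, 2 without liver sham B, 3 without kidney sham B and 3 without kidney sham C.

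In the sham groups, the inducible genes showed the widest differences between the organs. Sham liver was above sham kidney for 18 of 46 members and below for 2, where 18.9% of all genes were higher and 28.7% lower. The 2 lower were Psmd10, with -0.94 ± 0.19 (SE, adjusted p = 0.000906), and Psmd3, a lid subunit, with -0.65 ± 0.25 (SE, adjusted p = 0.0438), and in each fit without 1 sham array 1 was called. Psmb9 was 3.52 ± 0.29 (SE, adjusted p = 1.19e-07) higher in sham liver, Psmb8 2.56 ± 0.19 (SE, adjusted p = 3.66e-08) and Psmb10 2.19 ± 0.25 (SE, adjusted p = 4.05e-06). For each of these 3 genes, whose values in every array are given above, all liver arrays lay above all kidney arrays. The median difference over the 14 constitutive core genes was 0.26. Beside this, 10 of 13 interferon and antigen presentation genes and 10 of 11 macrophage markers were higher in sham liver, with median differences of 1.63 and 2.10, and the part of resident macrophages in the difference of the inducible genes was not tested.

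The promoters of the members were read because many of the genes rose in liver at 48 h. RefSeq windows (build GRCm38.p6) of 300 bases, from 250 before to 50 after a gene's start, were found for 38 of the members, as 40 windows. No window was matched for Psma8, Psmb1, Psmb2, Psmb7, Psmc3, Psmd3, Psmd7 and Psmg2. The core of the antioxidant response element, TGACNNNGC on either strand, which Nfe2l1 and Nfe2l2 bind with small Maf proteins, was in 15.0% of members' windows and in 12.4% of all 32851 promoter windows. Among members that rose at 48 h in liver the share was 14.3%, and among the others 15.8%. The 6 windows that held it follow, each with its match in capitals, read 5′ to 3′ on the strand of the gene.
Psmb6: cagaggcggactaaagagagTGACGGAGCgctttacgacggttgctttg
Psmb5: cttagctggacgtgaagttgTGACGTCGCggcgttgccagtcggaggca
Psmc6: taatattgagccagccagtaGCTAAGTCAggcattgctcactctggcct
Psmd12: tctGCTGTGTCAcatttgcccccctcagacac
Psmd9: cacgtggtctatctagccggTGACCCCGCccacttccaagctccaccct
Psme4: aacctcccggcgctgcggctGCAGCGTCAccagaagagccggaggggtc
They lie at chr11:70525328-70525376 (plus strand), chr14:54618014-54618062 (minus), chr14:45329577-45329625 (plus), chr11:107479278-107479309 (plus), chr5:123228139-123228187 (plus) and chr11:30771748-30771796 (plus). Psmb6, Psmc6 and Psmd12 were above sham at 48 h, Psmb5 and Psmd9 were not called, and Psme4 had fallen at 24 h. A core of the interferon-stimulated response element, TTCNNTTTC on either strand, was in 17.5% of members' windows and 8.56% of all windows, and the 2 shown belong to the interferon-inducible cap gene and to the member with the largest rise.
Psme1: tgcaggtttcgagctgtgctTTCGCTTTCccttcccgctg
Psmg4: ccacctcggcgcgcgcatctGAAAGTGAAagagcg
These lie at chr14:55578484-55578523 and chr13:34162959-34162993, both on the plus strand. The windows of Psmb8, Psmb9 and Psmb10 held no match of those letters. CCAAT, the box bound by NF-Y, was in 35.0% of members' windows and 37.4% of all windows. It was in 9 of 21 windows (42.9%) of members that rose at 48 h in liver. Among the others it was in 5 of 19 (26.3%). Splits of the motifs by call were not tested. A match is a description of letters in the window and was not tested as a site.

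Further probe sets of a member were compared with the set used here. In liver, 27 further sets of 20 members were tested. At 48 h against sham, the difference of 21 of the 27 had the same sign as that of the set used, and 0 were called in the opposite direction. At 24 h, 23 did, and the 2 called in the opposite direction were those of Psmc6. Some of these sets read near the floor. Of the 21 with a mean above 5, the sign was the same for 18 at 48 h and 17 at 24 h. In kidney, 27 further sets of 19 members were tested, and the sign was the same for 22 at 48 h against sham, 18 at 24 h against sham and 14 between 48 h and 24 h. Of the 21 with a mean above 5, it was the same for 20, 14 and 12, in the same order.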

How the data were processed

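RNA samples of liver and kidney, 18 in all, were measured on Affymetrix Mouse Genome arrays. The values are the log2 gcRMA values the authors deposited, made with the R packages affy and gcRMA per the labels' design text, and no raw scans were used. Of 45101 probe sets, 64 were controls, 34945 were named for 1 gene, 932 for several and 9160 for none. Each gene was represented by the set with the highest mean, which gave 18193 genes. Genes above the array median in at least 3 arrays were tested with limma 3.58.1 in R 4.3.3 (lmFit, eBayes with trend, two-sided, Benjamini-Hochberg adjustment over all genes tested), on the 9 arrays of an organ or on all 18 arrays for differences between organs. The number of arrays limits the precision. The fit was tested on simulated data.

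Members and lists were chosen with earlier results of these data known. Every array value is given for the catalytic beta genes, the activators and, per role and organ, the member with the largest change among those called; all others are named for a call or a motif. Psme2 had no set of its own. Alternatives were the filter, the mean of probe sets, quantile normalization, median centring, no trend, array weights, a replicate block, 1 fit of all arrays, the rank product, and leaving out each array. Same-lettered arrays were not treated as pairs, since no pairing is stated and not every pair correlated over 0.1: deviations correlated at -0.11 to 0.08 within liver, -0.12 to 0.23 within kidney and -0.07 to 0.27 between organs. That bar cannot exclude pairing. Sham liver and sham kidney correlated at 0.24 for letter A, 0.04 for B and 0.27 for C.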

Additional observations from a re-analysis of the deposited data

Results flagged for a closer look

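The change after GalN differed between liver and kidney, by the test of the difference itself in the limma fit of all 18 arrays. At 48 h, 28 members had a larger change in liver and 0 a smaller one, and at 24 h 10 had a larger and 5 a smaller one. Values below are the log2 change in liver minus that in kidney, each with an adjusted p under 0.05.

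Among core genes at 48 h, the difference was 1.09 for Psma5, 1.31 for Psma7, 0.52 for Psmb5, 0.76 for Psmb6 and 0.73 for Psmb7. In the regulatory particle it was 1.26 for Psmc4, 1.46 for Psmc6, 0.91 for Psmd2, 1.00 for Psmd4, 0.94 for Psmd6 and 1.63 for Psmd14. For the chaperone genes it was 1.73 for Psmd10 and 1.37 for Psmg4. Of 12 fits that each left out 1 array, these calls held in 1 for Psmd2, 2 for Psmb5, 8 for Psmb6 and 9 for Psmb7, and in all 12 for the other 9 genes named. Psmb5 and Psmd2 were also lost with no filter, Psmd2 with the mean of probe sets, and Psmg4 with quantile normalization. At 24 h the difference was above 0 for Psma5 (0.76), Psmc6 (0.68), Psmd10 (0.93) and Psmd6 (0.55). It was below 0 for Psmb2 (-0.83), the inducible Psmb10 (-1.06) and the cap genes Psme1 (-0.90) and Psme4 (-1.57). Of the 12 fits, these calls held in 2 for Psmb2, 3 for Psmb10 and 5 for Psme1, and in all 12 for the other 5 genes named. Psmb2 and Psmb10 were also lost with no filter, Psmb2 with the replicate block, and Psmc6 with the mean of probe sets, its probe sets having disagreed at 24 h in liver.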

How the results depend on the processing

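Members higher in liver at 48 h against sham numbered 22, and 37 with array weights, 14 with a replicate block, 0 by rank product and 10 to 27 without 1 array, while the members' median stayed between 0.53 and 0.73. Over all genes, 273 to 1008 were higher in the fits without 1 array. At 24 h in liver, the 6 higher became 11 with quantile normalization, array weights or all 18 arrays, 0 by rank product and 4 to 13 without 1 array. The 5 lower became 3 with no filter, the mean of probe sets or the replicate block, 8 with median centring, 13 with array weights, 0 by rank product and 2 to 6 without 1 array. Between 48 h and 24 h in liver, rank product called 0 and 0, and fits without 1 array 21 to 31 higher and 2 to 3 lower. In kidney at 24 h, the 1 higher, Psmg4, became 0 with no filter, all 18 arrays or rank product, and with quantile normalization, median centring or the replicate block Psmg4 was not called and Psme1 was, and the 1 lower became 0 with no filter, quantile normalization, no trend, the replicate block or rank product; without 1 array these were 0 to 1 and 0 to 4. In kidney at 48 h, the 1 higher became 0 with no filter, quantile normalization, median centring, the replicate block, all 18 arrays or rank product and 2 with array weights. The 3 lower became 0 with no filter, the replicate block, all 18 arrays or rank product, 1 with the mean of probe sets and 10 with array weights. With every probe set as its own feature, chosen after seeing the data, these were 0 and 5, and without 1 array 0 to 1 and 0 to 5. Between 48 h and 24 h in kidney, 1 was lower with quantile normalization, median centring or array weights, and 0 to 1 without 1 array. Of the 24 h differences between organs, the 5 smaller became 3 with no filter and 1 to 9 without 1 array. In sham organs, the 2 lower in liver became 1 with no filter, quantile normalization or the replicate block, and 1 in all 6 fits without 1 array.

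Uncalled changes turned sign as follows. With quantile normalization, Psmb6 in kidney at 48 h was 0.0781, Psmb8 in liver at 48 h -0.0401, and Psmd14 and Psmd2 in liver at 24 h 0.0453 and 0.0074. With median centring, Psmb6 in kidney was 0.0027 at 48 h and -0.0097 at 24 h, Psmb8 in liver at 48 h -0.0901, Psma7 in kidney at 24 h -0.0074 and Psmd6 in liver at 24 h -0.14. With array weights, Psmb6 in kidney was 0.0228 at 48 h and -0.0244 at 24 h, Psmb8 in liver at 48 h -0.0346, Psme3 there 0.54, Psma7 in kidney at 24 h -0.0112 and Psmd14 in liver at 24 h 0.0332. With the mean of probe sets, Psme3 in liver at 48 h was 0.23, Psme4 in kidney at 48 h -0.0075 and Psmc6 in liver at 24 h -0.54. Without 1 array, the liver ranges at 48 h were -0.0718 to 0.11 for Psmb8, -0.44 to 0.63 for Psme3 and -0.22 to 0.0616 for Psme4, and at 24 h -0.18 to 0.15 for Psmd14 and -0.0784 to 0.11 for Psmd6. The kidney ranges at 48 h were -0.0383 to 0.0398 for Psmb6 and -0.33 to 0.0161 for Psmb8, and at 24 h -0.0830 to 0.0593 for Psmb6, -0.11 to 0.0589 for Psmb8, -0.0902 to 0.0910 for Psma7, -0.004 to 0.29 for Psmd4 and -0.16 to 0.0087 for Psmd14. The causes were not tested. Of 63 calls on named members, 37 held in every fit without 1 array.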

Other observations

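A probe set named for both Psme2, the partner of Psme1 in the interferon-inducible cap, and its copy Psme2b belonged to no member. It averaged 12.01 ± 0.33 in 48 h livers, 11.14 ± 0.14 in 24 h livers and 11.41 ± 0.26 in sham livers, and 10.18 ± 0.20 in 48 h kidneys, 10.26 ± 0.30 in 24 h kidneys and 10.24 ± 0.26 in sham kidneys (SD, n = 3 each). It was not tested, because its signal cannot be given to 1 gene.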
